A study of Mus musculus with 32 samples.

Results

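The homeobox developmental transcription factor genes were read in the striatum of R6/2 mice, a model of Huntington's disease, and of wild-type (WT) mice. They were the genes whose symbols belong to the Hox clusters or to the Pou, Pax, Lhx, Irx, Nkx, Dlx, Onecut, Gbx, Emx, Otx and En families or to the family of Six3. On the array, 112 of the 18193 named genes met this rule, and each was read through its probe set of highest mean over all arrays. Among the 112 were 12 antisense or opposite-strand transcripts named after a neighbouring homeobox gene, and 2 further genes of the rule, Hoxb8 and Hoxd4, lay only on probe sets shared by several genes and were not used.

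The study measured total RNA of the striatum on 32 expression arrays in 4 groups of male mice aged 12 weeks on a CBA X C57Bl/6 background. R6/2 mice given HSP990 had 8 arrays and R6/2 mice given vehicle had 7, while WT mice given HSP990 had 10 and WT mice given vehicle had 7. HSP990 is an inhibitor of the HSP90 chaperone and was given by oral gavage at 12 mg/kg for 4 h. R6/2 mice carry a transgene for the first part of human huntingtin with an expanded CAG repeat, driven by the human promoter and not limited to one cell type, so the line models a fragment of the protein rather than the full gene. The labels tie no array to an animal, so the tests set differences against the variation among arrays, part of which may be technical.

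Homeobox factors bind DNA through a homeodomain, and together they give each region of the embryo its identity along the body axis and within the brain. Pou and Lhx factors add a further DNA-binding or protein-binding domain. Pax proteins carry a paired domain, and some Pax members, such as Pax1 and Pax9, have no homeodomain. In the developing forebrain Dlx genes direct the ganglionic eminences that form the striatum and its interneurons, Emx1 and Lhx2 act in the cortex, Lhx8 and Gbx1 in ventral forebrain, and Otx2 persists in the choroid plexus. Most Hox genes are silent in forebrain, where Polycomb complexes hold such developmental genes off. The comparisons ask which of these normally silent factors, or factors of neighbouring regions, were raised in R6/2 striatum.

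**Figure D1:**
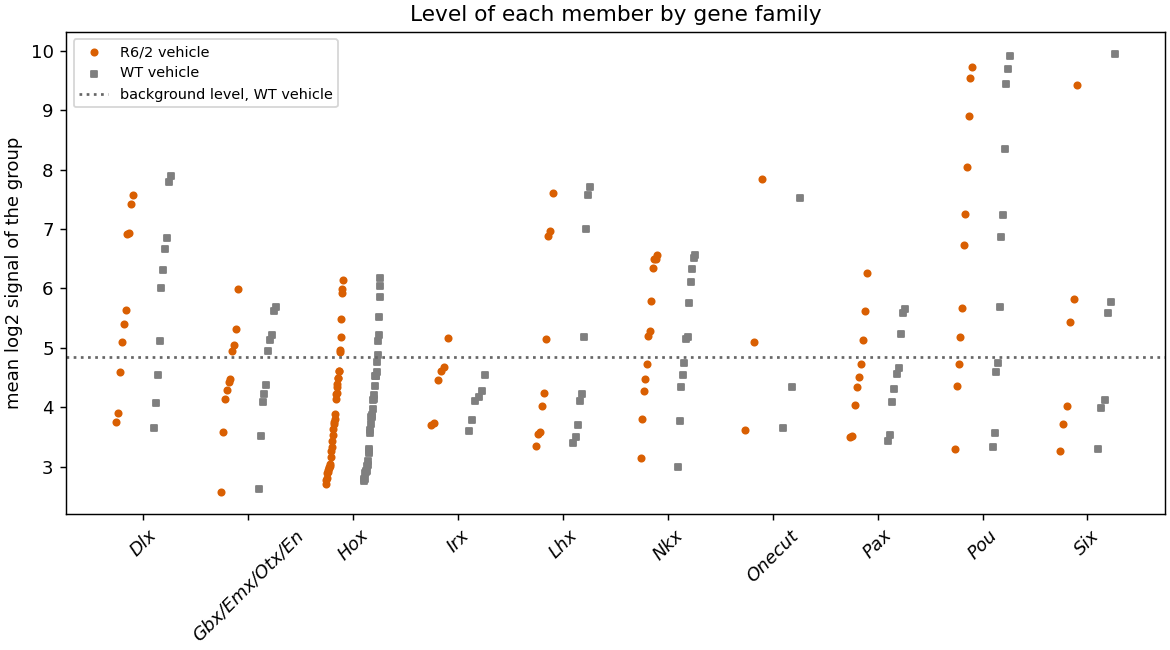
Mean log2 signal of each of the 112 genes (points) in R6/2 vehicle striatum (orange circles, left) and WT vehicle striatum (grey squares, right), by gene family; the dotted line is the background level in WT vehicle arrays, 4.84. Most Hox genes lie below the line in both groups, and Pou6f1, at 9.73 in R6/2 and 9.70 in WT, lies among the highest points.

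A background level was set from 38 olfactory receptor genes, which are not known to act in striatum: the 95th percentile of their mean log2 signal lay between 4.84 and 4.85 in each group. Probe sets differ in affinity, so a signal above that level is a description and levels of different genes were not compared. By this measure 47 of the 112 genes were above background in at least 1 group and 43 in all 4 groups, while 65 were above it in none. Of the 36 Hox members, 7 were above it, and of the 11 Pou members 8 were. Between groups 4 genes crossed the level. Irx5, Onecut1 and Pou4f1 were above it in both R6/2 groups and in neither WT group, and Otx2 was above it only in WT vehicle.

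On vehicle 10 genes differed between R6/2 and WT, 5 higher and 5 lower in R6/2 (limma, Benjamini-Hochberg adjusted p under 0.05). That is 8.93% of the 112, against 21.5% of all 18193 genes (11.9% higher and 9.6% lower), so the share lay below the background. Under HSP990, 15 genes differed, 8 higher and 7 lower, which is 13.4% of the 112 against 33.6% of all genes (22.6% higher and 11% lower). Averaged over both treatments, 19 genes differed, 10 higher and 9 lower, which is 17% against 38.9% (24.3% higher and 14.6% lower). The split of higher against lower moved with the scaling of the arrays. With each array centred on its median, 5 were higher and 17 lower under HSP990, and 7 higher and 19 lower averaged over treatments. With quantile normalization, 7 were higher and 11 lower under HSP990.

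The signal level of a gene bears on these shares. Among the 43 homeobox genes with a mean above background, 11 were called in the averaged comparison (25.6%), against 49.2% of all genes above it. Among the other 69, 8 were called (11.6%), against 11.6% of all genes at or below background. On vehicle the shares were 14% against 27.9% above background and 5.8% against 4.5% at or below it. Under HSP990 they were 20.9% against 43.4% above and 8.7% against 7.81% at or below. The median log2 difference of the 112 genes was -0.01 averaged over treatments, against 0.01 over all genes.

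Few genes separated the groups without overlap. On vehicle 2 genes, Onecut1 and Pou4f1, were higher in every R6/2 array than in every WT array, against 1.53% of all genes, and 0 were lower in that way, against 2.37%. Under HSP990 Irx5 and Pou4f1 were higher in that way, against 6.04% of all genes, and Dlx6os1 and Pou3f1 were lower, against 3.36%.

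**Figure D2:**
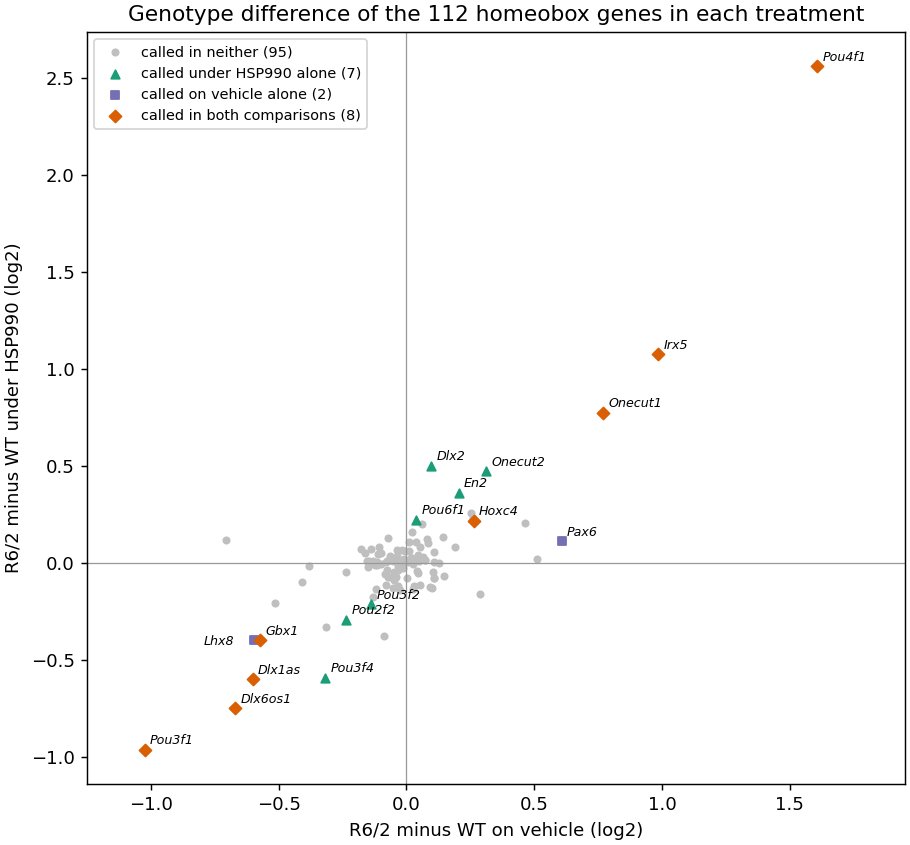
Log2 difference of R6/2 minus WT on vehicle (x axis) and under HSP990 (y axis) for each of the 112 genes, marked by the comparison in which the gene passed the adjusted p threshold. Pou4f1 lies at 1.61 and 2.56, Irx5 and Onecut1 follow on the raised side, and Pou3f1 lies lowest at -1.02 and -0.96.

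The 2 genotype comparisons share no array, although they share the estimate of spread. In both comparisons 8 genes passed in the same direction. Pou4f1, Irx5, Onecut1 and Hoxc4 were higher, and Pou3f1, Dlx6os1, Dlx1as and Gbx1 were lower. They are 80% of the vehicle calls and 53.3% of the HSP990 calls, against 75.5% and 48.3% for all genes called the same way in both. When each comparison was fitted on its own arrays alone, 8 and 17 genes passed, and 6 passed in both: Pou4f1, Irx5, Onecut1, Pou3f1, Dlx6os1 and Gbx1.

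Pou4f1 (chromosome 14) showed the largest rise of the 112 genes in both genotype comparisons. It encodes the POU factor Brn3a, which marks sensory neurons and the medial habenula and is not a factor of mature striatum. On vehicle its log2 signal had a lowest value of 4.12, a median of 4.91 and a highest of 7.08 in R6/2 arrays, against 3.17, 3.63 and 3.95 in WT arrays. Under HSP990 the values were 5.29, 6.14 and 6.86 in R6/2 arrays, against 3.15, 3.61 and 3.92 in WT arrays. Every R6/2 array lay above every WT array of the same treatment.

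The R6/2 minus WT difference of Pou4f1 was 1.61 ± 0.29 (log2, SE) on vehicle (limma adjusted p = 9.26e-05). Under HSP990 it was 2.56 ± 0.25 (limma adjusted p = 2.23e-09). Both WT means, 3.57 on vehicle and 3.59 under HSP990, lay below background, so these are differences of signal and no fold of the transcript is given. A second Pou4f1 probe set, dimmer, gave 1.46 on vehicle and 2.17 under HSP990. One R6/2 vehicle array, replicate 7, held the value of 7.08, and the other 6 lay between 4.12 and 5.86. Without that array the vehicle difference was 1.29 (limma adjusted p = 4.77e-05).

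Markers of the habenula, a list of 8 genes added after the values were seen, also stood apart in that array. Their mean log2 signal was 6.79 in replicate 7, the highest of the R6/2 vehicle arrays, where the median was 4.51. Gpr151 reached 8.64 and Tac2 8.58 there. The WT vehicle arrays spanned 4.47 to 4.68. Under HSP990 the list spanned 4.28 to 4.82 in R6/2 arrays and 4.28 to 4.87 in WT arrays, while Pou4f1 spanned 5.29 to 6.86 and 3.15 to 3.92. In the averaged genotype comparison 0 of its 8 genes were called, against 38.9% of all genes, and 2 were at an unadjusted p under 0.05 (limma). The list mean lay below background in most arrays, and of all genes at or below background 11.6% were called. With 8 genes this count therefore cannot decide whether the list differed. The part of the list in the Pou4f1 difference was not tested beyond the value without replicate 7.

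Across the 32 arrays, after group means were removed, Pou4f1 and the habenula list had a Pearson r of 0.64 (permutation p = 0.0603) and a Spearman rho of 0.24 (permutation p = 0.22). Without the 2 arrays farthest from the median of the list, r was 0.23. Within groups r was 0.76 in R6/2 vehicle, -0.11 in WT vehicle, 0.58 in R6/2 HSP990 and -0.12 in WT HSP990 arrays. With the thalamus list the r of Pou4f1 was 0.43 (permutation p = 0.137) and the rho 0.18 (permutation p = 0.389). These are 2 of 12 such relations computed, each chosen with values of these data known, and their adjusted p were 0.0724 and 0.264 for the habenula list and 0.149 and 0.424 for the thalamus list.

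**Figure D3:**
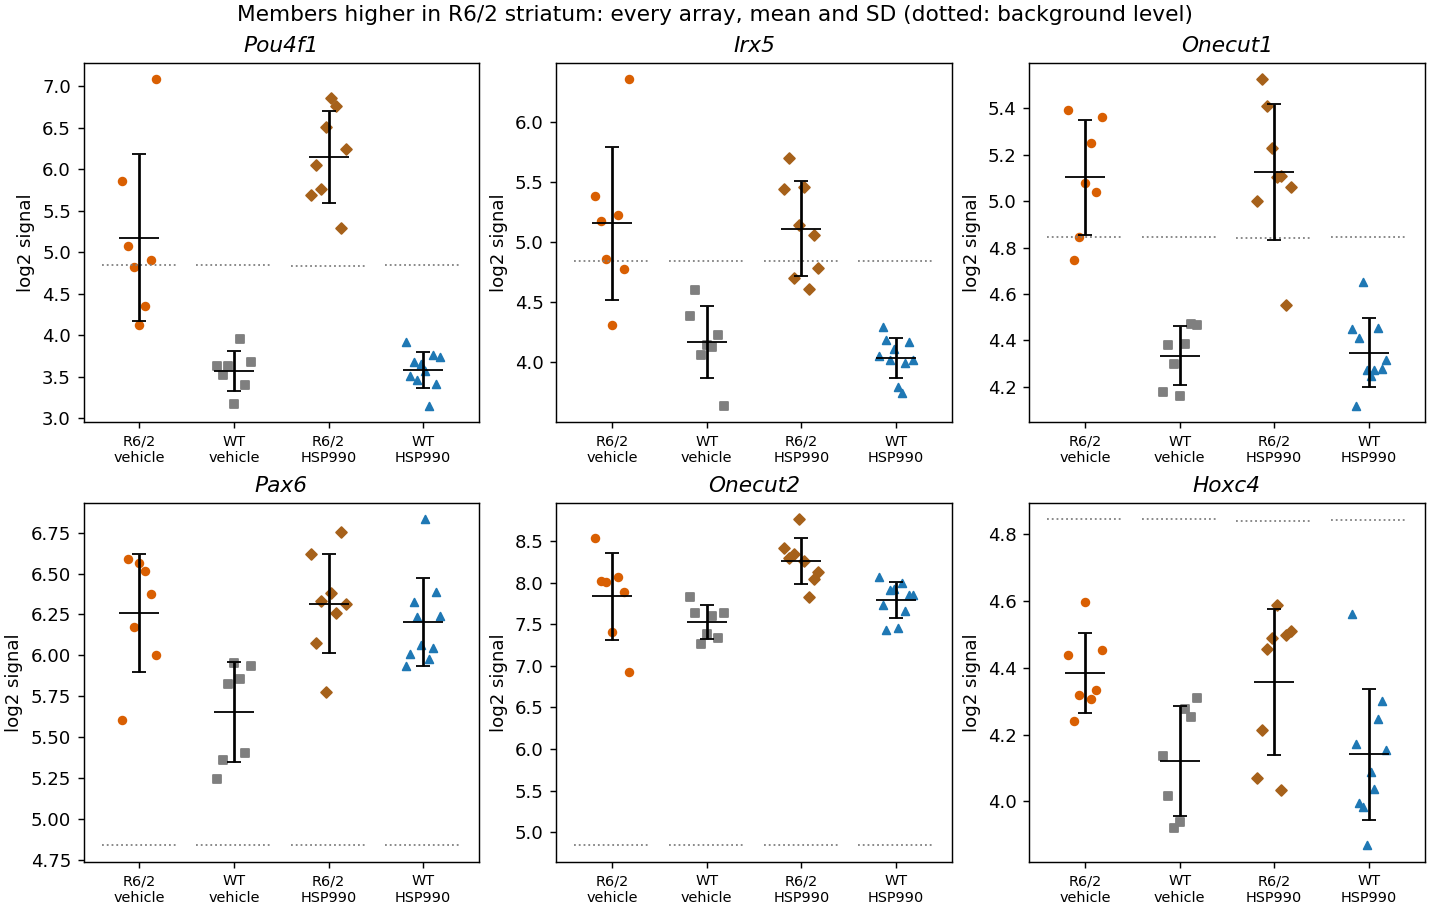
Log2 signal of 6 genes higher in R6/2 striatum, 1 point an array, with the group mean and SD (bars) and the background level of each group (dotted). For Pou4f1 all R6/2 points lie above all WT points of the same treatment; for Hoxc4 all groups lie below background.

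Irx5 (chromosome 8), an Iroquois factor that patterns neural tissue and heart, is read by 1 probe set. On vehicle it had 4.31, 5.18 and 6.35 as lowest, median and highest log2 signal in R6/2 arrays, against 3.64, 4.14 and 4.61 in WT arrays. Under HSP990 Irx5 had 4.61, 5.10 and 5.70 in R6/2 arrays, against 3.75, 4.04 and 4.29 in WT arrays. In 6 of 7 R6/2 vehicle arrays the signal exceeded every WT vehicle array, and under HSP990 the groups did not overlap. The differences were 0.98 ± 0.20 on vehicle (limma adjusted p = 0.000453) and 1.08 ± 0.18 under HSP990 (limma adjusted p = 1.24e-05). Without R6/2 vehicle replicate 7, which also held the highest Irx5 signal, the vehicle difference was 0.79.

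The genes around Irx5 and Pou4f1 were read next. Irx6, the measured neighbour of Irx5 on 1 side, differed by -0.08 ± 0.07 on vehicle and -0.04 ± 0.07 under HSP990, and neither passed. Irx3, of the same cluster, differed by 0.19 ± 0.13 and 0.08 ± 0.12, and neither passed. Crnde, a long non-coding RNA next to Irx5 on the other side, was higher by 0.57 ± 0.09 on vehicle (limma adjusted p = 1.06e-05) and by 0.77 ± 0.08 under HSP990 (limma adjusted p = 2.81e-09). Next to Pou4f1, Obi1, which encodes a ubiquitin ligase of replication origins, was also higher, by 0.37 ± 0.07 on vehicle (limma adjusted p = 0.000172) and by 0.77 ± 0.06 under HSP990 (limma adjusted p = 4.78e-11). The measured gene on the other side of Pou4f1, 4930432J09Rik, differed by -0.14 ± 0.08 and -0.04 ± 0.07 and did not pass. Neighbours were taken by order in the RefSeq annotation of GRCm38.p6. Of all genes 11.9% were higher and 9.6% lower on vehicle, and 22.6% were higher and 11% lower under HSP990. Some genes beside other raised members passed, in either direction. Next to Onecut1, Fam214a differed by -0.44 on vehicle and -0.55 under HSP990. Next to Onecut2, St8sia3 differed by -1.02 and -1.38 and Fech by 0.24 and 0.49. Next to En2, Insig1 differed by -0.75 and -0.38, and next to Otx1, Ehbp1 by 0.48 and 0.65. All of these passed. Other neighbours did not pass in either treatment. Gm16551, next to Onecut1, differed by -0.04 and 0.10, and Cnpy1, next to En2, by -0.11 and -0.005. Wdpcp, next to Otx1, differed by 0.21 and 0.23 and passed only under HSP990. Whether neighbours changed together was not tested.

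Onecut1 (chromosome 9) encodes HNF-6, a cut-homeodomain factor of liver, pancreas, retina and spinal motor neurons. On vehicle it had 4.75, 5.08 and 5.39 in R6/2 arrays, against 4.16, 4.38 and 4.47 in WT arrays. Under HSP990 Onecut1 had 4.55, 5.11 and 5.52 in R6/2 arrays, against 4.12, 4.30 and 4.65 in WT arrays. The vehicle groups did not overlap, and under HSP990 7 of 8 R6/2 arrays exceeded every WT array. The differences were 0.77 ± 0.11 on vehicle (limma adjusted p = 4.94e-06) and 0.78 ± 0.10 under HSP990 (limma adjusted p = 2.03e-07). A second Onecut1 probe set, at 3.58 in R6/2 vehicle and 3.51 in WT vehicle arrays, differed by 0.07 on vehicle and 0.12 under HSP990.

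Its relative Onecut2, a factor that is above background in all 4 groups, had 7.83, 8.28 and 8.77 in R6/2 arrays under HSP990, against 7.43, 7.85 and 8.07 in WT arrays. In 6 of 8 R6/2 arrays it exceeded every WT array. The difference was 0.47 ± 0.14 (limma adjusted p = 0.0103), and on vehicle it was 0.31 ± 0.16, which missed the threshold (limma adjusted p = 0.184). The vehicle values were 6.93, 8.01 and 8.54 in R6/2 arrays against 7.26, 7.60 and 7.83 in WT arrays, so the WT range lay inside that of R6/2. All 3 Onecut2 probe sets had positive differences, 0.31, 0.59 and 0.28 on vehicle and 0.47, 0.44 and 0.60 under HSP990. With all probe sets fitted, the vehicle difference of 0.59 passed (limma adjusted p = 0.0313). Through the probe set used, the vehicle difference passed in some fits with fewer arrays. Without R6/2 vehicle replicate 7 and WT vehicle replicate 4, chosen after the data were seen, it was 0.44 (limma adjusted p = 0.0292). The HSP990 call was lost with 3′ bias as a covariate, at 0.37 (limma adjusted p = 0.0661). The averaged call of Onecut2 was kept in all 13 alternatives and with each of the 32 arrays left out, at 0.33 to 0.47. Onecut3 lay below background in every group and differed by -0.01 ± 0.05 in the averaged comparison, without passing.

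Promoter sequence was at hand from RefSeq (GRCm38.p6) for 74 of the 112 genes, as 87 windows of 250 bases ending at the transcription start. The windows of Pou4f1 and Onecut1 are shown because both genes were above background only in R6/2 groups. Those of Dlx6os1 and Lhx8 are shown as examples of genes lower in R6/2. Of the 6 lower genes with windows, these 2 hold the fewest CG dinucleotides. CG dinucleotides are in capitals and each sequence runs 5′ to 3′ on the gene's strand. Pou4f1 is at chr14:104468000-104468249 (minus strand), Onecut1 at chr9:74861671-74861920 (plus strand), Dlx6os1 at chr6:6869534-6869783 (minus strand) and Lhx8 at chr3:154330561-154330810 (minus strand).
Pou4f1: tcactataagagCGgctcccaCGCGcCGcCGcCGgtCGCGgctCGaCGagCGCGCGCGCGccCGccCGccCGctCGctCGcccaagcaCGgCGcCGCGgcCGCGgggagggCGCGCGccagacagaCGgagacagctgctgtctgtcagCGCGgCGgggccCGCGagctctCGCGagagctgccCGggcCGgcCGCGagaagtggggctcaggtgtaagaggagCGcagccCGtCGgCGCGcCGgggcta
Onecut1: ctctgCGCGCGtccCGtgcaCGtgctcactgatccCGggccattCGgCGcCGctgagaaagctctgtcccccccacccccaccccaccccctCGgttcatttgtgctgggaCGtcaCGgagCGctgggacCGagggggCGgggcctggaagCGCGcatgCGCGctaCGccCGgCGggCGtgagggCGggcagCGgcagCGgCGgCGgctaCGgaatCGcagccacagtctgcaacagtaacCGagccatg
Dlx6os1: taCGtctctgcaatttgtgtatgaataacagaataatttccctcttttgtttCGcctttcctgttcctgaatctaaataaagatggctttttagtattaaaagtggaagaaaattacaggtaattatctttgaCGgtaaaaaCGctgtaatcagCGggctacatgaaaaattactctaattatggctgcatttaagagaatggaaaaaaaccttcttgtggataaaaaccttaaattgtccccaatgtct
Lhx8: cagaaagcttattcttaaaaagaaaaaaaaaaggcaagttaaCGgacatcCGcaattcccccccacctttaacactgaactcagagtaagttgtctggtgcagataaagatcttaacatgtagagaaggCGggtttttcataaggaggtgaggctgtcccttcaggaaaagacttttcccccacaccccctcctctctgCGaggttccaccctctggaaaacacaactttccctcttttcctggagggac

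The Pou4f1 window holds 47 CG dinucleotides, the most of the 87 windows, and that of Onecut1 holds 31. The printed Dlx6os1 window holds 5 and the Lhx8 window 4. The windows of the other genes lower in R6/2, not printed, hold 12 (Pou2f2), 13 (Pou3f4), 18 (Pou3f2) and 35 (Hoxa11os). The contrast between the printed sequences therefore follows in part from which windows were printed. The median was 14 CG dinucleotides over the 87 windows and 6 over all 32851 windows of the RefSeq table. The 7 windows of genes higher in R6/2 in the averaged comparison ranged from 8 to 47, with a median of 20. The 7 windows of genes lower in R6/2 ranged from 3 to 35, with a median of 12, so the ranges overlap. The homeodomain core TAATTA, which is its own reverse complement, was in 7 of the 87 windows (8.05%) and in 4.84% of all windows, and both Dlx6os1 windows held it. The POU octamer ATGCAAAT, searched on both strands, was in 0 of the 87 windows and in 1.6% of all windows.

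Pax6, a paired-domain and homeodomain factor of eye, cortex progenitors and olfactory bulb, was higher in R6/2 on vehicle. It had 5.61, 6.37 and 6.59 in R6/2 arrays, against 5.24, 5.83 and 5.95 in WT arrays, and 6 of 7 R6/2 arrays exceeded every WT array. The difference was 0.61 ± 0.16 (limma adjusted p = 0.00486). Under HSP990 the values were 5.78, 6.32 and 6.76 in R6/2 arrays, against 5.93, 6.15 and 6.83 in WT arrays, and the difference of 0.11 ± 0.14 did not pass (limma adjusted p = 0.605). The call rests on 1 of the 5 Pax6 probe sets. The other 4 differed by -0.19 to 0.15 on vehicle, and the mean of all 5 differed by 0.11 and missed the threshold (limma adjusted p = 0.275).

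Hoxc4, a posterior patterning gene, was the only Hox gene called on vehicle or under HSP990. On vehicle it had 4.24, 4.33 and 4.60 in R6/2 arrays, against 3.92, 4.14 and 4.31 in WT arrays, a difference of 0.26 ± 0.10 (limma adjusted p = 0.0489). Under HSP990 Hoxc4 had 4.03, 4.47 and 4.59 in R6/2 arrays, against 3.87, 4.12 and 4.56 in WT arrays, a difference of 0.22 ± 0.09 (limma adjusted p = 0.0496). All of these values lie below background, the groups overlap, and the calls were lost in 6 of 13 alternatives on vehicle and 9 of 13 under HSP990. The averaged call of Hoxc4 was kept in all 12 alternatives. It was also kept with each of the 32 arrays left out, at 0.22 to 0.26. Its measured Hox neighbour, Hoxc5, differed by 0.00 ± 0.07 on vehicle and -0.08 ± 0.07 under HSP990 and did not pass.

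Apart from Hoxc4 and Hoxa11os, no Hox gene was called in a genotype comparison. Averaged differences of the 36 Hox members ran from -0.13 to 0.24 with a median of -0.03, and the gene at the low end, Hoxa11os, an opposite-strand transcript of the Hoxa cluster, was called lower, with a difference of -0.13 ± 0.04 (limma adjusted p = 0.0196). Its values ran from 2.71 to 3.07 in R6/2 and from 2.84 to 3.23 in WT on vehicle, and from 2.73 to 3.11 in R6/2 and from 2.86 to 3.16 in WT under HSP990, with overlap in both. With the mean of its probe sets the averaged difference was -0.08 and did not pass (limma adjusted p = 0.113). Hoxc9, the Hox member with the highest mean, averaged 6.15 ± 0.11 in R6/2 vehicle against 6.18 ± 0.12 in WT vehicle arrays (SD, n = 7 each), a difference of -0.03 ± 0.08.

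Among other regional factors, En2, a mid-hindbrain gene, was higher under HSP990 by 0.36 ± 0.11 (limma adjusted p = 0.013), with 4.15, 4.42 and 4.95 in R6/2 arrays against 3.78, 4.08 and 4.42 in WT arrays. All group means of En2 lie below background, and 4 of 8 R6/2 arrays exceeded every WT array under HSP990. The vehicle values of En2 were 3.93, 4.21 and 4.66 in R6/2 arrays against 3.77, 4.10 and 4.46 in WT arrays, and the difference of 0.20 ± 0.13 did not pass (limma adjusted p = 0.283). The En2 call under HSP990 was lost with each array centred on its median, at 0.27 (limma adjusted p = 0.0646), and with 3′ bias as a covariate, at 0.29 (limma adjusted p = 0.0688). The averaged call of En2 was kept in all 12 alternatives and with each of the 32 arrays left out, at 0.25 to 0.31. Otx1, a factor of deep cortical layers, passed only in the averaged comparison, by 0.25 ± 0.09 (limma adjusted p = 0.0285). On vehicle it had 3.99, 4.36 and 5.09 in R6/2 arrays against 3.88, 4.24 and 4.45 in WT arrays. Under HSP990 the values were 4.21, 4.31 and 5.14 in R6/2 arrays against 3.93, 4.19 and 4.38 in WT arrays, and the groups overlapped in both treatments. The highest Otx1 values, 5.09 and 5.14, were those of R6/2 vehicle replicate 4 and R6/2 HSP990 replicate 6. Both are among the 3 R6/2 arrays with the highest mean of 13 measured cortex markers. Those arrays, R6/2 vehicle replicates 4 and 7 and R6/2 HSP990 replicate 6, had cortex means of 8.98, 9.03 and 8.67, where R6/2 medians were 7.28 on vehicle and 6.98 under HSP990. High cortex means also occurred in WT, up to 8.70 on vehicle and 8.40 under HSP990. Without those 3 R6/2 arrays the Otx1 difference was 0.13 (limma adjusted p = 0.188), while with all arrays and the cortex mean as a covariate it was 0.25 (limma adjusted p = 0.00367). Both alternatives were added after the data were seen. With each array centred on its median it was 0.21 (limma adjusted p = 0.0731).

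Dlx2, which specifies striatal progenitors and interneurons, was higher under HSP990, with 6.80, 7.29 and 7.73 in R6/2 arrays against 6.39, 6.76 and 7.11 in WT arrays. In 6 of 8 R6/2 arrays it exceeded every WT array, and the difference was 0.50 ± 0.15 (limma adjusted p = 0.00739). The vehicle values of Dlx2 were 6.71, 6.98 and 7.26 in R6/2 arrays against 6.12, 6.90 and 7.57 in WT arrays, and the difference of 0.10 ± 0.16 did not pass (limma adjusted p = 0.741). Pou6f1, a POU factor of the adult brain, was higher under HSP990 by 0.22 ± 0.06 (limma adjusted p = 0.00368), with 9.73, 9.84 and 10.18 in R6/2 arrays against 9.50, 9.68 and 9.77 in WT arrays. In 7 of 8 R6/2 arrays it exceeded every WT array. The second Pou6f1 probe set differed by 0.03 under HSP990. The call was lost with the mean of both probe sets, at 0.13 (limma adjusted p = 0.0604), and with each array centred on its median, at 0.13 (limma adjusted p = 0.0913). On vehicle Pou6f1 had 9.57, 9.70 and 10.03 in R6/2 arrays against 9.59, 9.69 and 9.78 in WT arrays, a difference of 0.04 ± 0.07 that did not pass (limma adjusted p = 0.745).

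**Figure D4:**
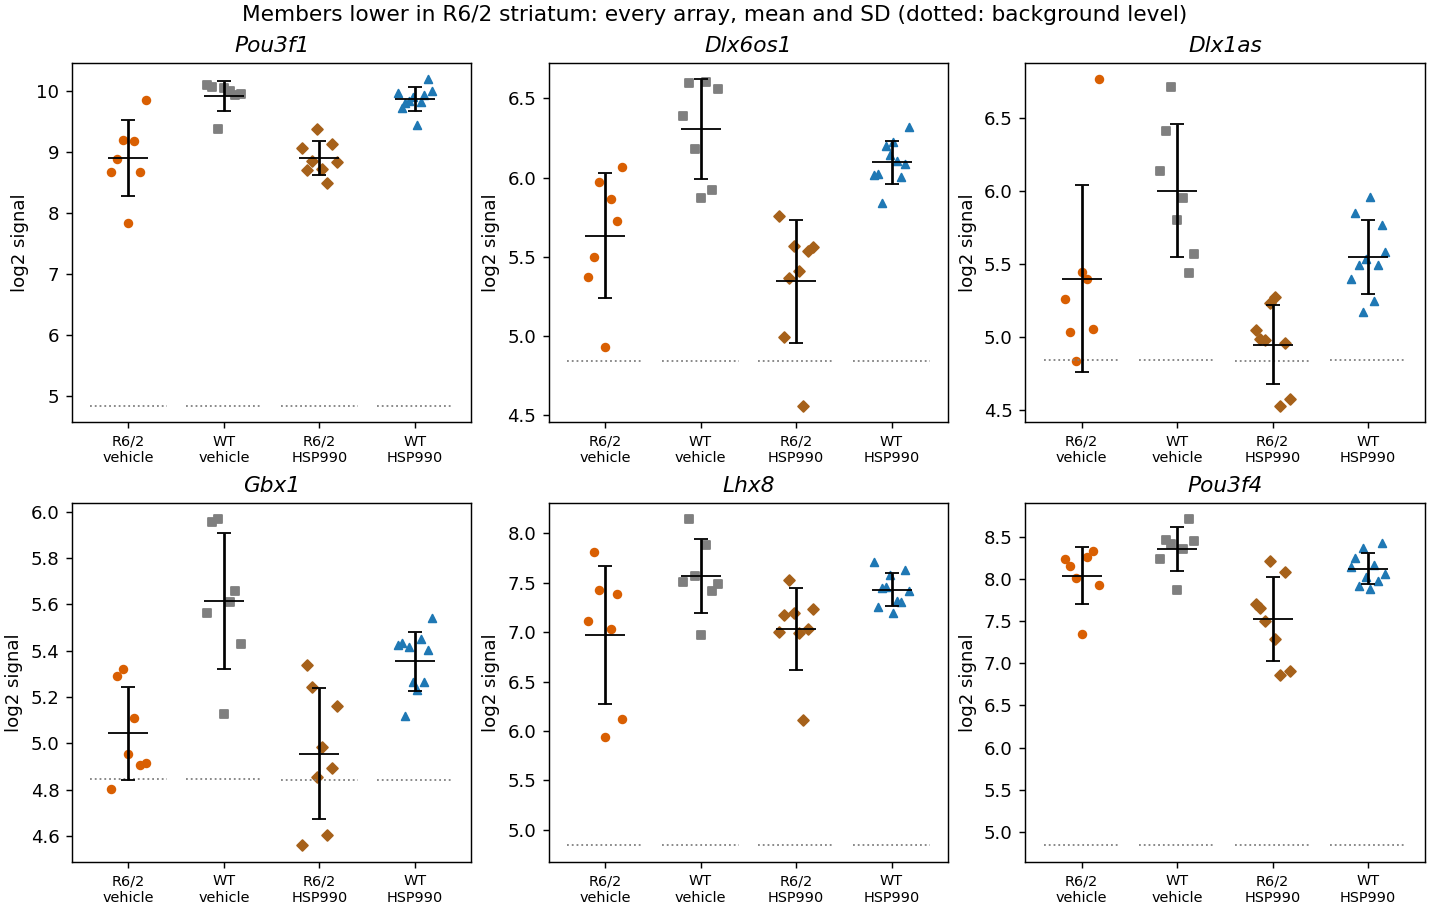
Log2 signal of 6 genes lower in R6/2 striatum, 1 point an array, with the group mean and SD (bars) and the background level of each group (dotted). Pou3f1 and Dlx6os1 do not overlap between R6/2 and WT arrays under HSP990, and both lie above background in every group mean.

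Pou3f1 (chromosome 4) had the lowest difference of the 112 genes in both genotype comparisons. It encodes Oct-6, a POU factor of Schwann cells and of forebrain neurons. On vehicle it had 7.84, 8.88 and 9.85 in R6/2 arrays, against 9.38, 9.99 and 10.10 in WT arrays, and 6 of 7 R6/2 arrays lay below every WT array. Under HSP990 Pou3f1 had 8.49, 8.84 and 9.38 in R6/2 arrays, against 9.44, 9.86 and 10.18 in WT arrays, with no overlap. The differences were -1.02 ± 0.18 on vehicle (limma adjusted p = 8.92e-05) and -0.96 ± 0.16 under HSP990 (limma adjusted p = 1.58e-05), and the second probe set gave -1.36 and -1.35. The R6/2 vehicle array that overlapped was again replicate 7, at 9.85, and without it the difference was -1.18 (limma adjusted p = 1.64e-06).

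Striatal spiny neuron markers moved with Pou3f1. All 15 measured genes of that list were lower in the averaged comparison, with a median of -1.61, where 14.6% of all genes were lower. Their mean log2 signal ran from 9.22 to 10.79 in R6/2 and from 11.48 to 11.88 in WT arrays on vehicle, and from 9.51 to 10.51 in R6/2 and from 11.40 to 11.93 in WT arrays under HSP990. After group means were removed, Pou3f1 and the list had an r of 0.77 (permutation p = 9e-05, adjusted 0.00027) and a rho of 0.64 (permutation p = 0.00083, adjusted 0.00166) across the 32 arrays. The r was 0.62 without the 2 arrays farthest from the median of the list, and within groups it ran from 0.33 in WT vehicle to 0.86 in WT HSP990. In bulk tissue fewer cells of a type and less RNA per cell cannot be told apart. The part of these markers in the fall of Pou3f1 was not tested.

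Pou3f4, Pou3f2, Pou3f3 and Pou2f2 gave smaller differences through the probe sets used, which were not tested against that of Pou3f1. Pou3f4, a factor of striatal progenitors and inner ear, was lower under HSP990, with 6.86, 7.57 and 8.21 in R6/2 arrays against 7.88, 8.09 and 8.42 in WT arrays. In 6 of 8 R6/2 arrays it lay below every WT array, and the difference was -0.59 ± 0.15 (limma adjusted p = 0.00213). The vehicle values of Pou3f4 were 7.35, 8.15 and 8.32 in R6/2 arrays against 7.87, 8.41 and 8.71 in WT arrays, and the difference of -0.32 ± 0.17 did not pass (limma adjusted p = 0.192). Its second probe set differed by 0.05 on vehicle and -0.93 under HSP990. Pou3f2, or Brn2, a factor of upper-layer cortical neurons, was lower under HSP990, with 6.60, 6.95 and 7.01 in R6/2 arrays against 6.93, 7.11 and 7.32 in WT arrays and overlap between them. Its difference was -0.21 ± 0.08 (limma adjusted p = 0.0299). The other 2 Pou3f2 probe sets differed by 0.24 and -0.27, and the mean of all 3 by -0.08, which did not pass (limma adjusted p = 0.548). On vehicle Pou3f2 had 6.51, 6.72 and 6.95 in R6/2 arrays against 6.64, 6.77 and 7.14 in WT arrays, and -0.14 ± 0.09 did not pass (limma adjusted p = 0.276). Pou3f3 differed by 0.01 ± 0.07 in the averaged comparison and did not pass. Pou2f2, or Oct-2, a factor of B cells and some neurons, was lower under HSP990, with 4.07, 4.31 and 4.83 in R6/2 arrays against 4.31, 4.69 and 4.81 in WT arrays, all below background. Its difference was -0.29 ± 0.09 (limma adjusted p = 0.0148). The other 2 Pou2f2 probe sets differed by -0.12 and -0.06, and the mean of all 3 by -0.16, which did not pass (limma adjusted p = 0.0893). On vehicle Pou2f2 had 4.09, 4.29 and 4.85 in R6/2 arrays against 4.35, 4.59 and 4.79 in WT arrays, and -0.24 ± 0.11 did not pass (limma adjusted p = 0.116). The other 2 Pou2f2 probe sets differed by -0.33 and -0.28 on vehicle. The mean of all 3 differed by -0.28 there, which passed (limma adjusted p = 0.0109).

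Of the 4 antisense or opposite-strand Dlx transcripts, Dlx6os1 and Dlx1as were lower in R6/2 in both treatments. Dlx6os1 contains the Evf RNAs that act on the enhancer between Dlx5 and Dlx6. On vehicle it had 4.93, 5.73 and 6.07 in R6/2 arrays, against 5.87, 6.39 and 6.60 in WT arrays, with 5 of 7 R6/2 arrays below every WT array. Under HSP990 Dlx6os1 had 4.56, 5.47 and 5.76 in R6/2 arrays, against 5.84, 6.10 and 6.32 in WT arrays, with no overlap. The differences were -0.67 ± 0.16 (limma adjusted p = 0.00249) and -0.75 ± 0.14 (limma adjusted p = 8.71e-05). Its protein-coding partners Dlx6 and Dlx5 differed by -0.31 ± 0.21 and -0.38 ± 0.17 on vehicle and by -0.33 ± 0.19 and -0.02 ± 0.15 under HSP990, and none of these passed.

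Dlx1as, the antisense transcript of Dlx1, had 4.84, 5.26 and 6.77 in R6/2 arrays on vehicle, against 5.44, 5.95 and 6.71 in WT arrays. The value of 6.77 was again that of replicate 7, and 5 of 7 R6/2 arrays lay below every WT array. Under HSP990 Dlx1as had 4.53, 4.98 and 5.27 in R6/2 arrays, against 5.17, 5.51 and 5.96 in WT arrays. The differences were -0.60 ± 0.21 on vehicle (limma adjusted p = 0.0366) and -0.60 ± 0.19 under HSP990 (limma adjusted p = 0.0112). On vehicle the call was lost in the fit of the vehicle arrays alone (limma adjusted p = 0.141) and with quantile normalization (limma adjusted p = 0.0552). With a block for the replicate number it was lost on vehicle (limma adjusted p = 0.0697) and under HSP990 (limma adjusted p = 0.0503). The vehicle call was kept in 24 of 32 fits with 1 array left out. Dlx1, on the opposite strand, differed by 0.26 ± 0.18 on vehicle and 0.23 ± 0.16 under HSP990, and neither passed. The sources used here do not give the strand each probe reads.

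Gbx1, a factor of ventral forebrain and spinal cord, had 4.80, 4.96 and 5.32 in R6/2 arrays on vehicle, against 5.12, 5.61 and 5.97 in WT arrays. Under HSP990 Gbx1 had 4.56, 4.94 and 5.34 in R6/2 arrays, against 5.12, 5.41 and 5.54 in WT arrays. In each treatment 5 R6/2 arrays lay below every WT array, and the differences were -0.57 ± 0.12 (limma adjusted p = 0.000641) and -0.40 ± 0.11 (limma adjusted p = 0.00338). Lhx8, which specifies striatal cholinergic interneurons, was lower on vehicle, with 5.93, 7.11 and 7.81 in R6/2 arrays against 6.97, 7.51 and 8.15 in WT arrays. The groups overlap, and the difference was -0.60 ± 0.22 (limma adjusted p = 0.0474). Under HSP990 the Lhx8 values were 6.11, 7.10 and 7.53 in R6/2 arrays against 7.20, 7.43 and 7.71 in WT arrays, a difference of -0.40 ± 0.19 that did not pass (limma adjusted p = 0.117). After group means were removed, Lhx8 ran against 12 measured interneuron markers, with an r of -0.58 (permutation p = 0.00388, adjusted 0.00665). The rho was -0.46 (permutation p = 0.0164, adjusted 0.0282). Within groups the r ran from -0.85 in R6/2 vehicle to -0.16 in WT vehicle arrays. The lowest Lhx8 values, 5.93, 6.12 and 6.11, were those of the same 3 R6/2 arrays of highest cortex mean. Without them the vehicle difference was -0.22 (limma adjusted p = 0.313), while with all arrays and the cortex mean as a covariate it was -0.59 (limma adjusted p = 0.00529). The vehicle call was also lost with most single arrays left out. Among them were R6/2 vehicle replicate 4, at -0.42 (limma adjusted p = 0.144), and R6/2 vehicle replicate 7, at -0.45 (limma adjusted p = 0.123). Averaged over both treatments Lhx8 was called lower, and that call was kept in all 13 alternatives. It was also kept with each of the 32 arrays left out, at -0.57 to -0.41.

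The 5 genes of smallest p came nearest to the threshold in the averaged comparison without passing it. Six3, which is needed for striatal spiny neurons of the indirect pathway, differed by -0.36 ± 0.15 (limma adjusted p = 0.0554), and its antisense transcript Six3os1 by -0.25 ± 0.11 (limma adjusted p = 0.0682). The lowest R6/2 values of Six3, 8.43, 8.62 and 8.44, were again those of the 3 R6/2 arrays of highest cortex mean. With all arrays and the cortex mean as a covariate the averaged Six3 difference was -0.36 and passed (limma adjusted p = 0.00748). It also passed with 3′ bias as a covariate, at -0.42 (limma adjusted p = 0.0195), and in several other alternatives. The mean of its 3 probe sets differed by -0.17 and passed (limma adjusted p = 0.0422). The other 2 Six3 probe sets differed by -0.12 and 0.15 on vehicle and by -0.28 and -0.05 under HSP990. Dlx6 differed by -0.32 ± 0.14 (limma adjusted p = 0.0685), Irx1 by 0.14 ± 0.06 (limma adjusted p = 0.0687) and Lhx6, a factor of parvalbumin and somatostatin interneurons, by -0.15 ± 0.07 (limma adjusted p = 0.0849). Of these 5 differences 4 were negative. Each of the 5 genes passed in some of the alternatives. The cortical genes Emx1 and Emx2 differed by 0.08 ± 0.13 and 0.06 ± 0.10, and Lhx2, also a cortical factor, by -0.23 ± 0.12, without passing. Without the 3 R6/2 arrays of highest cortex mean Lhx2 differed by -0.42 and passed (limma adjusted p = 8.96e-05). It also passed with the cortex mean as a covariate, at -0.23 (limma adjusted p = 0.023). Under HSP990 Lhx2 missed the threshold but passed in several alternatives, among them quantile normalization, at -0.46 (limma adjusted p = 0.023).

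Few of these genes passed in the drug comparisons. In WT mice 2 genes (1.79%) were higher 4 h after HSP990 than on vehicle and 0 lower, with 12 at an unadjusted p under 0.05 (limma), against 5.8% of all genes called (2.24% higher and 3.57% lower). Nkx2-2, a factor of oligodendrocyte precursors, had 6.19, 6.85 and 7.33 in WT HSP990 arrays against 5.33, 6.23 and 6.87 in WT vehicle arrays, a difference of 0.75 ± 0.21 (limma adjusted p = 0.0289). Its averaged genotype difference of 0.33 ± 0.15 did not pass (limma adjusted p = 0.0861). That difference passed in some alternatives, among them array weights, at 0.37 (limma adjusted p = 0.0258). Without the 3 R6/2 arrays of highest cortex mean, an alternative added after the data were seen, it was 0.47 and passed (limma adjusted p = 0.00659). The drug call was lost without WT vehicle replicate 4, 6 or 7, at 0.62, 0.70 and 0.64 (limma adjusted p = 0.0769, 0.0654 and 0.0759). With group means removed, Nkx2-2 and 14 measured oligodendrocyte markers had an r of 0.56 and a rho of 0.60 (permutation p = 0.00169 and 0.00043, adjusted 0.00338 and 0.00103), and an r of 0.78 within WT vehicle and 0.77 within WT HSP990 arrays. Of those 14 markers 1 was higher and 0 lower after HSP990 in WT, with 3 and 1 at an unadjusted p under 0.05 (limma) and a median difference of 0.19. Pax6 was higher by 0.55 ± 0.14 (limma adjusted p = 0.0171), in 9 of 10 WT HSP990 arrays above every WT vehicle array. Its other 4 probe sets differed by -0.11 to 0.17, and the mean of all 5 by 0.11, which did not pass (limma adjusted p = 0.357). In R6/2 mice only Pou4f1 passed (0.893%), against 3.09% of all genes called (2.18% higher and 0.918% lower). Its difference was 0.97 ± 0.28 (limma adjusted p = 0.0468). The R6/2 groups overlap for Pou4f1, since vehicle replicate 7, at 7.08, lay above every R6/2 HSP990 array and vehicle replicate 1, at 5.86, above 3 of them. The call was lost in 9 of 13 alternatives. Without vehicle replicate 7 the difference was 1.29 (limma adjusted p = 0.000403).

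The interaction of genotype and HSP990 passed the adjusted threshold in 0 of the 112 genes, with 6 at an unadjusted p under 0.05 (limma), where 0.247% of all genes passed. The interaction of Pou4f1 was 0.95 ± 0.38 (limma adjusted p = 0.273), and that of Pax6 was -0.50 ± 0.21 (limma adjusted p = 0.304). Without R6/2 vehicle replicate 7 and WT vehicle replicate 4, 2 arrays chosen after the data were seen, the Pou4f1 interaction was 1.34 (limma adjusted p = 0.0476).

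**Figure D5:**
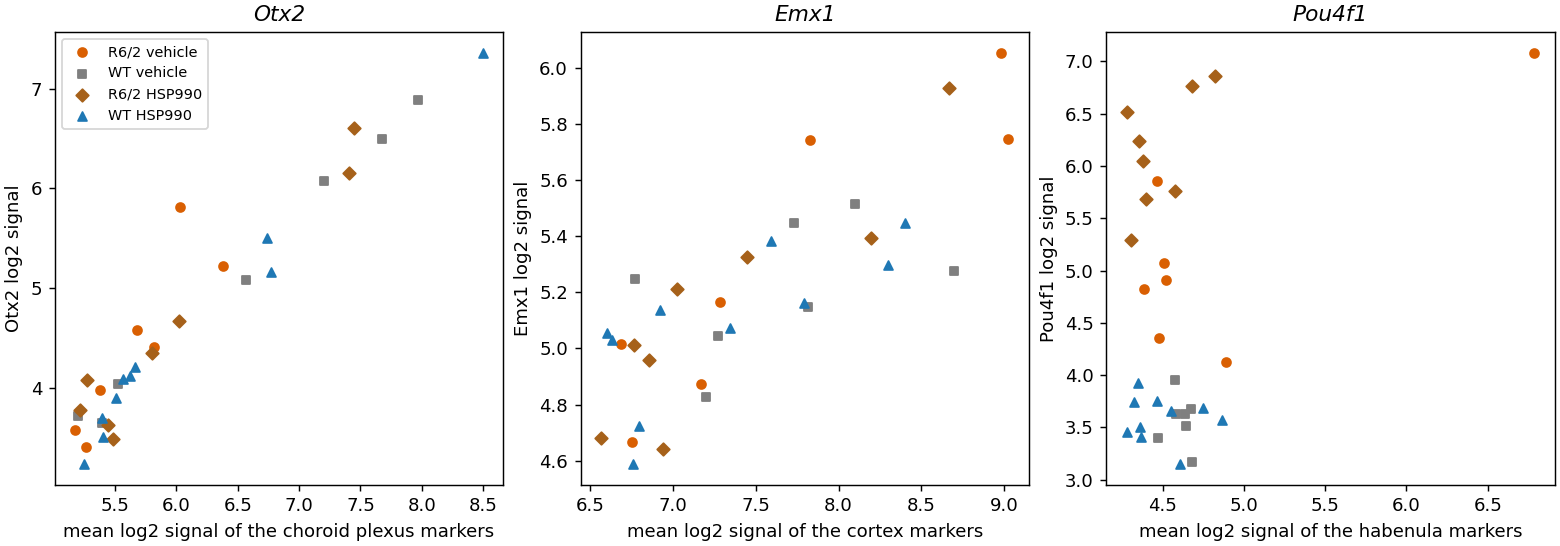
Log2 signal of Otx2, Emx1 and Pou4f1 (y axes) against the mean log2 signal of choroid plexus, cortex and habenula markers in the same array (x axes), 1 point an array, by group. Otx2 follows its list in every group. For Pou4f1 a single R6/2 vehicle array reaches a habenula mean of 6.79, and all R6/2 points lie above all WT points of the same treatment. The part of the habenula list in this was not tested beyond the value without that array.

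Several genes varied between arrays with markers of tissue next to the striatum. Otx2 varied most within groups, with a pooled SD of 1.18 on the log2 scale where the median gene had 0.18. It had 3.40, 4.41 and 5.82 in R6/2 vehicle arrays against 3.64, 5.08 and 6.88 in WT vehicle arrays, and 3.48, 4.21 and 6.61 in R6/2 HSP990 arrays against 3.23, 4.10 and 7.36 in WT HSP990 arrays. With group means removed, Otx2 and 14 measured choroid plexus markers had an r of 0.97 and a rho of 0.94 across the 32 arrays (permutation p = 1e-05 each, the smallest the permutations can give, adjusted 6e-05). The list spanned 5.18 to 6.38 in R6/2 vehicle arrays, 5.20 to 7.97 in WT vehicle arrays, 5.22 to 7.45 in R6/2 HSP990 arrays and 5.25 to 8.50 in WT HSP990 arrays. The genotype difference of Otx2, -0.30 ± 0.40, did not pass.

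Cortical members followed 13 measured cortex markers in the same way. The r was 0.81 for Emx1 (permutation p = 1e-05, adjusted 6e-05), 0.73 for Lhx2 (permutation p = 5e-05, adjusted 0.0002) and 0.69 for Otx1 (permutation p = 0.00012, adjusted 0.000288), with rho of 0.80, 0.71 and 0.64. Without the 2 arrays farthest from the median of the list the r was 0.76, 0.63 and 0.63. In the averaged genotype comparison, 2 of the 13 cortex markers were lower and 0 higher, with the same counts at an unadjusted p under 0.05 (limma), where 38.9% of all genes were called. With the cortex mean as a covariate, an alternative added after the data were seen, Pou4f1 differed by 2.08 in the averaged comparison, Irx5 by 0.99 on vehicle and Pou3f1 by -1.02 on vehicle.

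Genes that work with homeobox factors or resemble them were read in the averaged comparison, from lists chosen with earlier results known, beside 24.3% of all genes higher and 14.6% lower. Of 26 measured cofactors of homeodomain proteins, 3 were higher and 9 lower. Dach2, Eya1 and Eya4, partners of the family of Six3, were the higher ones, by 0.37, 0.33 and 0.31. Lmo2, a LIM-only adaptor, differed by -1.07 ± 0.09 (limma adjusted p = 2.8e-11), Tle2, a co-repressor, by -0.67 ± 0.10 (limma adjusted p = 7.94e-07) and Meis2 by -0.38 ± 0.09 (limma adjusted p = 0.000533). Of 66 measured homeobox genes of other families, 3 were higher and 7 lower. Shox2, a homeobox gene of limb, heart pacemaker and thalamus, was higher by 1.00 ± 0.16 (limma adjusted p = 6.19e-06) and Zfhx4 by 0.44 ± 0.07 (limma adjusted p = 9.18e-06). Satb1 was the other higher gene, by 0.56 ± 0.13. The 7 lower ones were Zfhx2, Cux1, Zeb1, Lmx1a, Msx3, Meox1 and Hmx2, with differences of -0.33 to -0.16.

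Of 53 measured developmental transcription factors of other families, listed as silenced, 5 were higher and 0 lower, with 7 and 1 at an unadjusted p under 0.05 (limma), against 24.3% and 14.6% of all genes. These were Wt1, Twist1, Zic2, Zic5 and Nr2f1, with differences of 0.29 to 0.73. Of 32 measured Polycomb genes, 11 were higher and 3 lower. Sfmbt2 was higher by 2.01 ± 0.14 (limma adjusted p = 1.18e-12), and Bmi1, Rnf2 and Eed, core subunits of the Polycomb complexes, by 0.61 ± 0.07, 0.50 ± 0.07 and 0.47 ± 0.05 (limma adjusted p = 1.3e-08, 2.18e-07 and 4.6e-09). The 3 lower genes were Scmh1, at -0.52 ± 0.05, and Ring1 and Pcgf2, also core subunits, at -0.31 ± 0.09 and -0.19 ± 0.06 (limma adjusted p = 1.34e-09, 0.00719 and 0.00749).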

How the data were processed

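Total RNA of mouse striatum was labelled and hybridised to Affymetrix expression arrays, per the labels' protocols. The values deposited by the authors run from 2.15 to 14.74 with array medians of 5.73 to 5.78, and were read as log2 signals from that range. How the authors normalized them was not given in the sources used here. Of 45101 probe sets, 64 were controls, 34945 named 1 gene, 932 several and 9160 none in GEO's platform annotation, and probe sets with 1 gene were used.

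All 18193 genes were fitted with 1 mean per group in limma 3.58.1 in R 4.3.3 and tested with its two-sided moderated test, with Benjamini-Hochberg adjustment over all genes and calls at an adjusted p under 0.05. The same code was tested on simulated data. Marker lists were summarised as the mean log2 signal per array, and relations used deviations from group means with 100000 permutations. Python 3.11, numpy 2.4.6, pandas 2.3.3, scipy 1.17.1 and matplotlib 3.10.9 were used. Array numbers of 7 to 10 per group limit the precision.

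The genes and lists were chosen with earlier results of these data known. Named were every gene called in any of the 6 comparisons, the gene of highest mean in each family and the 5 genes of smallest p that missed the threshold in the averaged comparison. Otx2 was added after its values were seen, for the largest spread within groups, so that spread is a description. Other genes were named as neighbours or relatives of these after their values were seen. Alternatives covered the scaling, the probe sets, the filter, the arrays fitted, the variance model, array weights, 3′ bias, a block for the replicate number and each array left out. The labels do not say whether the replicate numbers pair the samples, and a check of correlations did not settle it. No 2 arrays held identical values, and the highest correlation between arrays was 0.997.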

Additional observations from a re-analysis of the deposited data

Results flagged for a closer look

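Over 29 named genes in 4 groups, 116 sets of arrays were examined for a single array far from the others, by the gap to its nearest neighbour relative to the range of the group, and 12 had one. Chance gives about 1 in 20, which would be 5.8. All values are log2 signals.

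Replicate 6 of R6/2 HSP990 stood apart with Lhx8 at 6.11 (the other arrays 6.99 to 7.53), Otx1 at 5.14 (the other arrays 4.21 to 4.51) and Six3 at 8.44 (the other arrays 9.41 to 9.99). Replicate 7 of R6/2 vehicle stood apart with Dlx1as at 6.77 (the other arrays 4.84 to 5.45) and Nkx2-2 at 5.33 (the other arrays 6.40 to 7.05). Replicate 8 of R6/2 HSP990 stood apart with Pou3f2 at 6.60 (the other arrays 6.86 to 7.01). Replicate 2 of R6/2 vehicle stood apart with Lhx6 at 7.53 (the other arrays 6.60 to 6.91). Replicate 4 of R6/2 vehicle stood apart with Pou3f4 at 7.35 (the other arrays 7.93 to 8.32). Replicate 1 of WT HSP990 stood apart with Irx1 at 4.13 (the other arrays 4.45 to 4.72). Replicate 5 of WT HSP990 stood apart with Six3os1 at 4.29 (the other arrays 3.62 to 3.95). Replicate 6 of WT HSP990 stood apart with Pax6 at 6.83 (the other arrays 5.93 to 6.38). Replicate 3 of WT vehicle stood apart with Pou3f1 at 9.38 (the other arrays 9.92 to 10.10).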

How the results depend on the processing

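No called difference reversed under any alternative run. Pou4f1, Irx5, Onecut1, Pou3f1, Dlx6os1 and Gbx1 kept their calls in both genotype comparisons under every alternative that tested them and with each of the 32 arrays left out. In the averaged comparison 13 genes did so, these and Dlx1as, En2, Hoxc4, Lhx8, Onecut2, Pou2f2 and Pou3f4. With only genes above the median of all probe sets, which tests 25 of the genes, 4 were called on vehicle, 8 under HSP990, 10 averaged over treatments and 0 for HSP990 in R6/2. For HSP990 in WT, averaging a gene's probe sets gave 1 call, array weights 4, and the fit without R6/2 vehicle replicate 7 and WT vehicle replicate 4, chosen after seeing the data, 4. For HSP990 in R6/2, array weights and the cortex mean as a covariate (added after seeing the data) gave 2 each, Pou4f1 and Pou3f4. The single call was the lower Lhx6, not Pou4f1, under quantile normalization and median centring, and the lower Pou3f4 with the mean of a gene's probe sets and with all probe sets. The groups compared alone, the trended and robust variance, 3′ bias as a covariate and the fit without arrays of Gapdh 3′ bias over 2 gave 0 each. The interaction had 1 call, Pou4f1, without those 2 vehicle arrays. With each array left out, calls ran from 7 to 12 on vehicle, 13 to 17 under HSP990, 17 to 23 averaged, 1 to 3 for HSP990 in WT, 0 to 3 for HSP990 in R6/2 and 0 to 0 for the interaction. Causes were not tested, other than the fewer genes or arrays in some fits.

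The labels do not say whether the replicate numbers pair the samples. Same-numbered arrays correlated from -0.29 to 0.38. Their medians over pairs of groups ran from -0.09 to 0.13, against -0.06 to -0.01 for arrays of other numbers. The same-number median was the higher one in most pairs of groups, so this check cannot exclude a shared block. With the replicate block, 8 genes were called on vehicle, 14 under HSP990, 21 averaged, 2 for HSP990 in WT, 0 for HSP990 in R6/2 and 0 for the interaction. Over all genes the block gave 655 calls for HSP990 in WT against 1056 without it, and 23 against 45 for the interaction. Signal near background limits what most of the Hox genes can show.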

Other observations

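Other lists, chosen with earlier results known, are given for the averaged genotype comparison by limma, where 24.3% of all genes were higher and 14.6% lower in R6/2. Of 16 measured striatal transcription factors 1 was higher and 8 lower, with a median log2 difference of -0.34. Rarb, a retinoic acid receptor, differed by -1.06, Foxo1 by -1.18, Egr3 by -1.09, Bcl11b, a spiny neuron factor, by -0.73 and Foxp1 by -0.71, while Ikzf2 differed by 0.47. Of 12 interneuron markers 0 were higher and 7 lower, with a median of -0.34 and the same counts at an unadjusted p under 0.05. Of 14 oligodendrocyte markers 0 were higher and 4 lower, against 0 and 6 at an unadjusted p under 0.05.

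For markers of neighbouring regions the shares called ran on both sides of that of all genes. Of 14 thalamus markers 1 was higher and 3 lower, of 16 hypothalamus markers 1 was higher and 5 lower, and of 11 markers of pallidum and septum 3 were higher and 3 lower. Of 16 midbrain and hindbrain markers 0 were higher and 1 lower, with the same counts at an unadjusted p under 0.05. Of 14 choroid plexus markers 0 were called and 2 were lower at an unadjusted p under 0.05, with a median difference of -0.45. Of 12 neuroblast markers 3 were higher and 3 lower.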
